A study of Mus musculus with 8 samples.

Results

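The nuclear genes of respiratory complex III and of ATP synthase were examined in AML12 cells, a hepatocyte line established from mouse liver. They were taken as every gene whose symbol starts with Uqc or Atp5 in the 8 deposited tables, leaving out symbols that hold -ps, which mark pseudogenes. The rule found 29 of 55401 genes, 11 with Uqc (complex III) and 18 with Atp5 (ATP synthase), and left out 8 -ps rows. Control was 4 dishes of untreated cells with an incubation of 1 h. Opti-ELF-WMF was 4 dishes of the same line kept for 1 h under weak magnetic pulses of 4 ms at 1 to 8 Hz with a peak of 100 mG. The labels number the replicates without saying that they were separate dishes, and each is called a dish here. Control dishes were kept apart, in a second incubator whose stimulator was not running, so incubator and field cannot be told apart. The model was a single cultured line with no other cell type around it. RNA was read as 150 bp pairs from stranded mRNA libraries, and each gene has a TPM value (abundance scaled by transcript length and by the total of the dish) in each dish. TPM keeps no sequencing depth, so the depth is unknown and no counting interval can be given.

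Complex III takes electrons from ubiquinol and passes them to cytochrome c while it moves protons out of the mitochondrial matrix. ATP synthase lets protons back in through a rotating ring of subunit c and uses that motion in its F1 head to make ATP. Nearly all subunits of both enzymes are encoded in the nucleus, while cytochrome b of complex III and subunits a and 8 of ATP synthase are encoded by mitochondrial DNA, and hepatocytes are rich in both enzymes.

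The label of the cells was compared with markers. All 11 hepatocyte genes of the list had a mean TPM of at least 1, with summed TPM of 5521 to 5790.1 in Control dishes and 5888 to 6106 in Opti-ELF-WMF dishes. Krt8 was the most abundant at a mean TPM of 2305, Trf was at 838 and Hnf4a at 193, whereas Alb was at 52.4 and Apoa1 at 4.16. Of the 4 cholangiocyte genes, 3 reached 1 TPM, led by Krt19 at 1162, while Epcam was at 0.0475, and the list summed to 1203 to 1291 in Control and 1218 to 1339 in Opti-ELF-WMF dishes. Of the 5 mesenchymal genes only Vim (1407) reached 1 TPM, and the list summed to 1306 to 1403 and 1382 to 1509.8. The 3 endothelial genes summed to at most 0.08 TPM in any dish with Cdh5 at 0 throughout, and the 3 leukocyte genes summed to 1.59 to 2.31 and 1.15 to 1.77, nearly all Cd68, with Adgre1 at 0. The hepatocyte sum was higher in the Opti-ELF-WMF dishes mostly through the general epithelial keratins Krt8 (2206 to 2280.3 in Control, 2305 to 2431 under Opti-ELF-WMF) and Krt18 (1825 to 1963, 1992 to 2071). Alb (52.5 to 58.2, 46.1 to 53.0) and Apoa1 (4.01 to 5.29, 3.12 to 4.76) tended the other way with overlapping dishes, so the markers did not move as a class, and their part in the results on the 2 enzymes was not tested.

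Across both enzymes, most genes were slightly higher under Opti-ELF-WMF, and none passed the test. Of the 28 genes that reached 1 TPM in 4 or more dishes, 24 had a higher mean log2(TPM + 1) under Opti-ELF-WMF (85.7%) and 4 a lower one, against 7720 of 12122 tested genes with a higher mean (63.7%). The members' count was 21, 22 and 21 of 28 under upper-quartile scaling, median-of-ratios scaling and rescaling without mitochondria-encoded genes. The median log2 difference of all tested genes was then −0.0038, 0.005 and −0.0016, against 0.03 with values as deposited. The member that was not tested was a second Atp5o entry (ENSMUSG00000116933), a read-through model that was listed at 0 in all 8 dishes. With limma and Benjamini-Hochberg adjustment over 12122 tested genes, 0 genes were called at an adjusted p under 0.05 in the whole table (0%), and 0 of 28 members. Without Opti-ELF-WMF dish 2 the table had 6 called genes, without Control dish 2 it had 2 and without Control dish 3 it had 1, with 0 members each time. At an unadjusted p under 0.05, 12 of 28 members were higher, against 1451 of all tested genes (12.0%), and 0 members were lower, against 443 genes (3.65%). By enzyme, these were 4 of 11 complex III genes and 8 of 17 ATP synthase genes. Cells of both groups were prepared together from 1 batch of culture, so these p-values measure the spread between dishes of that batch, which may be technical.

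The members are abundant transcripts, and the abundant genes of the whole table were shifted in the same way. Among all 1485 tested genes with a mean TPM of 100 to 1000, a range chosen after the data were seen because 24 of the 28 members lie in it, 559 were higher at an unadjusted p under 0.05 (37.6%), against 10 of those 24 members (41.7%). Their median log2 difference was 0.06, equal to that of the members in the range at 2 decimals, and 86.9% of them had a higher mean, against 87.5% of the members. The members' share was near that of all genes at their level, so it is not a result about the 2 enzymes in particular.

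**Figure D1:**
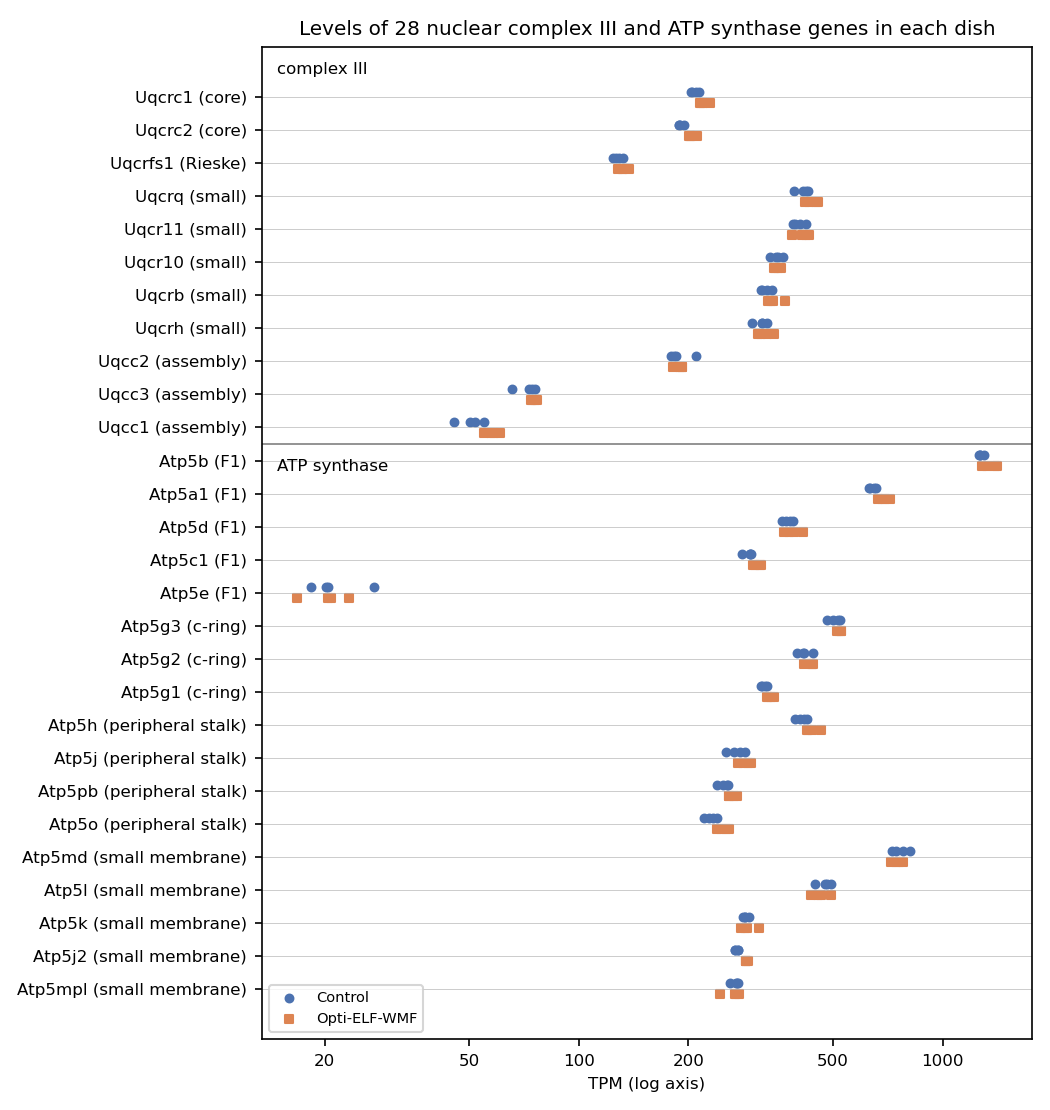
TPM of the 28 tested genes in the 4 Control dishes (circles) and the 4 Opti-ELF-WMF dishes (squares) on a log axis, grouped by enzyme and role. Means ran from 20.9 for Atp5e to 1314 for Atp5b, and in most rows the squares lie slightly to the right of the circles or among them.

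With values as deposited, transcripts of the 2 core subunits of complex III, which face the matrix, were both higher in every Opti-ELF-WMF dish than in any Control dish. Protein was not measured in these data. Uqcrc2 (ENSMUSG00000030884, chromosome 7) was at 188, 189.6, 195 and 189 TPM in Control dishes 1 to 4 and at 201, 212, 201 and 204 TPM in Opti-ELF-WMF dishes 1 to 4. The lowest exposed dish was above the highest Control dish, and the log2 difference was 0.10 ± 0.025 (SE), with a limma adjusted p of 0.131. Uqcrc1 (ENSMUSG00000025651, chromosome 9) was at 209.6, 205, 203 and 214 TPM in Control and at 216, 229.7, 215 and 220.0 TPM under Opti-ELF-WMF. Its groups also did not overlap, by a narrow margin, and its log2 difference was 0.08 ± 0.029 (SE), with a limma adjusted p of 0.217. These were the 2 of 11 complex III genes whose groups did not overlap, both higher, against 971 of 12122 tested genes that were separated upward (8.01%), 376 of the 1485 genes at 100 to 1000 TPM (25.3%) and 225 of all tested genes separated downward (1.86%). Under upper-quartile scaling, median-of-ratios scaling and rescaling without mitochondria-encoded genes, Uqcrc1 differed by 0.049, 0.059 and 0.052, with unadjusted limma p of 0.0746, 0.0448 and 0.0741. Uqcrc2 differed by 0.071, 0.080 and 0.073, with p of 0.00899, 0.00351 and 0.012 from the same fits.

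Uqcrfs1, the Rieske iron-sulfur protein that takes electrons from ubiquinol, was at 132, 129, 124 and 126 TPM in Control and at 131, 138, 128 and 132 TPM under Opti-ELF-WMF. The groups overlapped, with a log2 difference of 0.05 and a limma adjusted p of 0.49. Uqcrfs1 was the lowest of the structural subunits, at a mean of 130.0 TPM.

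The 5 small subunits had mean levels from 320.5 to 425 TPM, above the core and Rieske proteins, and a median log2 difference of 0.04. Uqcrq, a small subunit beside cytochrome b and the most abundant complex III gene, was at 428, 421, 412 and 391 TPM in Control and at 454, 448, 429.9 and 418 TPM under Opti-ELF-WMF. Opti-ELF-WMF dishes 1 to 3 exceeded every Control dish and dish 4 did not, and the log2 difference was 0.08 with a limma adjusted p of 0.303. The hinge protein gene Uqcrh, Uqcrb, Uqcr10 and Uqcr11 had log2 differences of 0.04, 0.08, 0.0031 and 0.04, and their groups overlapped.

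Of the 3 assembly factors, which act on newly made cytochrome b, 1 was higher at an unadjusted p under 0.05, against 12.0% of all tested genes. Differences between them were not tested. Uqcc1, the lowest complex III gene, was at 51.7, 45.3, 50.1 and 54.9 TPM in Control and at 54.8, 57.3, 60.8 and 58.4 TPM under Opti-ELF-WMF. Opti-ELF-WMF dish 1 fell just short of Control dish 4, so the groups overlapped, and the log2 difference of 0.19 ± 0.056 (SE) had a limma adjusted p of 0.161. Its mean was 14.5% higher, which exceeded that of every other member. Uqcc2 and Uqcc3 had log2 differences of 0.0022 and 0.06, both with overlapping groups. The largest Uqcc2 value, 209 TPM, was in Control dish 2.

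In the F1 head of ATP synthase, 3 of 5 genes (Atp5a1, Atp5b and Atp5c1) were higher at an unadjusted p under 0.05, against 12.0% of all tested genes and 37.6% of those at 100 to 1000 TPM, and 0 were called. Atp5a1, the alpha subunit (ENSMUSG00000025428), was at 655, 627, 633 and 649 TPM in Control and at 695, 716, 666 and 679.6 TPM under Opti-ELF-WMF. The groups did not overlap, and the log2 difference was 0.10 ± 0.028 (SE), with a limma adjusted p of 0.14. Atp5b, the catalytic beta subunit and the most abundant member, was at 1267, 1265, 1262 and 1300.0 TPM in Control and at 1327, 1411, 1282 and 1395 TPM under Opti-ELF-WMF. Only Opti-ELF-WMF dish 3 fell within the Control range, and the log2 difference was 0.09 with a limma adjusted p of 0.227. Atp5c1, the gamma subunit of the rotor, had a log2 difference of 0.08 with separated groups, and Atp5d, the delta subunit, had 0.04 with overlapping groups. Atp5e, the epsilon subunit, was at 20.4, 27.3, 18.3 and 20.1 TPM in Control and at 20.4, 23.4, 16.8 and 20.9 TPM under Opti-ELF-WMF. It was the lowest member, its groups overlapped throughout, and its log2 difference of −0.07 had a 95% interval from −0.35 to 0.21.

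Subunit c, which forms the rotating ring, is encoded by 3 genes with the same mature protein. Atp5g1 was at 316, 319, 328 and 325 TPM in Control and at 338, 343, 331 and 329.5 TPM under Opti-ELF-WMF, without overlap. Atp5g2 was at 439, 413, 398 and 416 TPM in Control and at 437, 438, 416 and 441 TPM under Opti-ELF-WMF, with overlap. Atp5g3 was at 480.2, 523, 515 and 499 TPM in Control and at 511, 526, 525 and 518 TPM under Opti-ELF-WMF, also with overlap. The log2 differences were 0.06, 0.06 and 0.05, with limma adjusted p of 0.258, 0.445 and 0.492. When 1 dish was left out, Atp5g1 ranged from 0.048 to 0.068, Atp5g2 from 0.036 to 0.083 and Atp5g3 from 0.022 to 0.063. Atp5g1 was 0.027, 0.036 and 0.029 under upper-quartile scaling, median-of-ratios scaling and rescaling without mitochondria-encoded genes. Its unadjusted limma p was then 0.301, 0.143 and 0.213.

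The ratio of the 3 subunit c transcripts differed by less than the spread between dishes. Atp5g1 made up 25.9% ± 0.488 (SD, n = 4) of their summed TPM in Control and 26.03% ± 0.32 under Opti-ELF-WMF. Atp5g2 made up 33.5% ± 1.47 and 33.6% ± 0.654, and Atp5g3 made up 40.6% ± 1.3 and 40.4% ± 0.643. The order Atp5g3, Atp5g2, Atp5g1 held in all 8 dishes.

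The peripheral stalk, which keeps the F1 head from turning with the ring, had the highest median log2 difference of the ATP synthase groups, at 0.09, and 3 of 4 tested genes (Atp5o, Atp5h and Atp5pb) were higher at an unadjusted p under 0.05, against the same shares, with 0 called. Atp5o, which encodes OSCP at the tip of the stalk (ENSMUSG00000022956, chromosome 16), was at 221, 240.2, 228 and 233 TPM in Control and at 259, 246, 254 and 240.4 TPM under Opti-ELF-WMF. The separation rested on a gap of less than 1 TPM between Control dish 2 and Opti-ELF-WMF dish 4, and the log2 difference was 0.11 ± 0.033 (SE), with a limma adjusted p of 0.161. Atp5h and Atp5pb, the d and b subunits, had log2 differences of 0.10 and 0.08 with groups separated by gaps that were likewise under 1 TPM, and Atp5j, coupling factor 6, had 0.08 with overlap.

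Of the 5 small membrane subunits, 1 was higher at an unadjusted p under 0.05, against 12.0% of all tested genes and 37.6% of those at 100 to 1000 TPM. Differences between them were not tested. Atp5j2, subunit f (ENSMUSG00000038690, chromosome 5), had the smallest p of all members and was at 275, 273, 268 and 269 TPM in Control and at 291, 288, 287 and 287 TPM under Opti-ELF-WMF. The groups were well apart relative to their spread, and the log2 difference was 0.09 ± 0.02 (SE), with a limma adjusted p of 0.122. Atp5l (subunit g), Atp5md (DAPIT) and Atp5mpl (a small proteolipid) had log2 differences of −0.04, −0.03 and −0.02, and Atp5k (subunit e) had 0.025, below the median of all tested genes. In these 4 genes the groups overlapped, and the signs of Atp5md and Atp5mpl changed when 1 dish was left out. Atp5l stayed lower but ranged from −0.07 without Opti-ELF-WMF dish 1 to −0.012 without dish 2. Atp5md was at 725 to 815 TPM in Control and 719.7 to 779 TPM under Opti-ELF-WMF. The median of the group was −0.02. In all, 7 of 17 ATP synthase genes had separated groups, each of them higher, which with complex III made 9 of 28, against 8.01% of all tested genes. These 9 all lay at a mean TPM of 100 to 1000 (9 of 24, 37.5%), where 25.3% of all tested genes were separated upward. Under the upper-quartile, median-of-ratios and mitochondria-free scalings, 2, 3 and 3 of 28 were separated upward, against 3.41%, 4.58% and 3.83% of all tested genes.

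**Figure D2:**
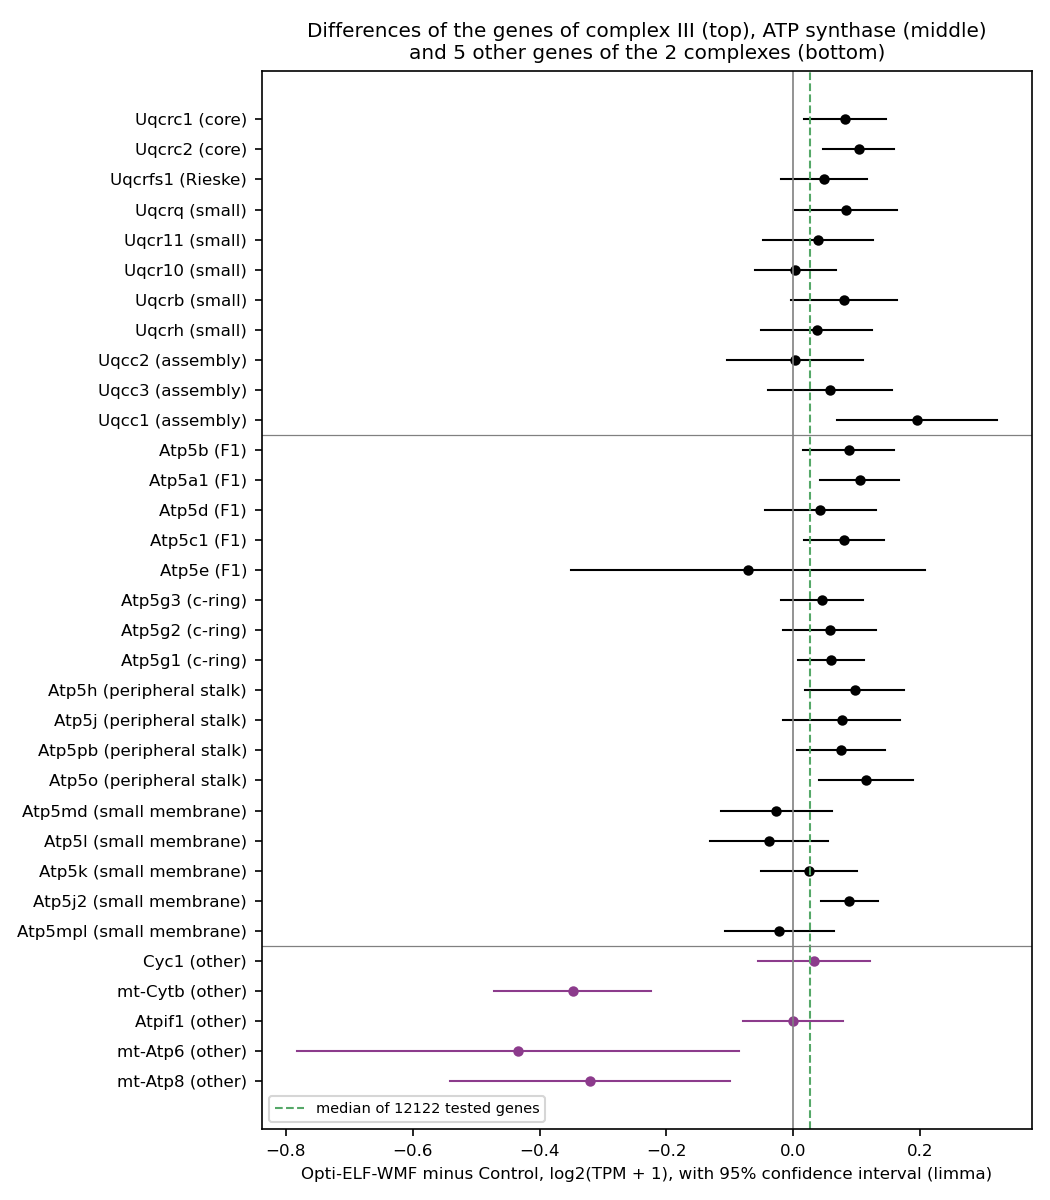
Log2 difference of each gene between Opti-ELF-WMF and Control with its 95% confidence interval from limma, for 11 complex III genes, 17 ATP synthase genes and 5 other genes of the 2 enzymes. The dashed line is the median over all tested genes (0.03), and most nuclear genes lie to its right while the mitochondria-encoded mt-Cytb, mt-Atp6 and mt-Atp8 lie to the left of 0.

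The median log2 difference was 0.06 for complex III, 0.06 for ATP synthase and 0.06 for both together, against 0.03 for all tested genes. Summed TPM of the complex III genes was 2644 ± 39.97 (SD, n = 4) in Control and 2748 ± 66.7 under Opti-ELF-WMF, a difference of 3.93%. Control dish 1, at 2674, lay just above Opti-ELF-WMF dish 3, at 2673, so these sums overlapped. Summed TPM of the ATP synthase genes was 7073 ± 54.4 in Control and 7342 ± 82.9 under Opti-ELF-WMF, a difference of 3.81%, and these sums did not overlap. For both enzymes the difference was 3.84%. TPM are shares of a total, so more transcript per cell and less of other transcripts cannot be told apart.

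Mitochondria-encoded transcripts made up 8.69% to 9.42% of TPM in Control dishes and 5.99% to 7.69% in Opti-ELF-WMF dishes, which leaves a larger share for all other genes. After TPM were rescaled without them, the median log2 difference was 0.03 for complex III and 0.03 for ATP synthase, with −0.0016 for all tested genes, and the sums differed by 1.81% and 1.69%. With the upper quartile as scale, 4 of 28 members had an unadjusted limma p under 0.05, all higher, against 590 tested genes that were higher (4.87%) and 786 that were lower (6.48%). With the median of ratios it was 6 of 28, against 823 higher (6.79%) and 669 lower (5.52%), and without mitochondria-encoded genes 5 of 28, against 688 (5.68%) and 689 (5.68%). Under each of these 3 scalings the sums of both enzymes overlapped between groups.

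**Figure D3:**
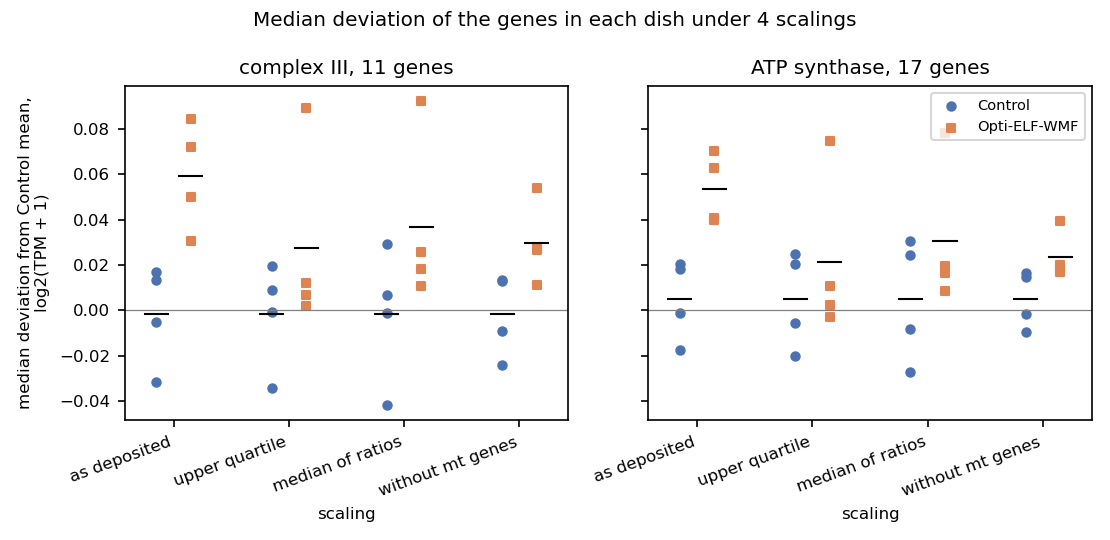
Median deviation of the 11 complex III genes (left) and 17 ATP synthase genes (right) from their Control means on the log2(TPM + 1) scale, 1 point for each dish, under 4 scalings, with bars at group means. With values as deposited every Opti-ELF-WMF dish lay above every Control dish, and under the upper-quartile and median-of-ratios scalings only Opti-ELF-WMF dish 1 stood well above the others.

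The dishes did not contribute equally. In Opti-ELF-WMF dish 1, 26 of 28 members were above their Control mean, with 24, 21 and 23 in dishes 2, 3 and 4. In Control dish 3 only 6 were above it, with 18, 17 and 15 in Control dishes 1, 2 and 4. After upper-quartile scaling, Opti-ELF-WMF dish 1 still had 26 members above the Control mean, and dishes 2, 3 and 4 had 15, 16 and 17. Without Control dish 3, 7 of 28 members had an unadjusted limma p under 0.05, in place of 12, with 2 in complex III and 5 in ATP synthase, while 10.3% of all tested genes were higher in that fit. Without Opti-ELF-WMF dish 1 it was 8, with 3 and 5, while 13.5% of all tested genes were higher.

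Within each group the members varied little. Among the 24 members with a mean TPM of 100 to 1000, the median coefficient of variation was 3.28% in Control and 3.22% under Opti-ELF-WMF, against 2.63% and 3.16% for all tested genes of that range.

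Of 17 other genes linked to the 2 enzymes by role or by an earlier name, listed from general knowledge, all were tested, 0 were higher and 4 were lower at an unadjusted p under 0.05, against 12.0% and 3.65% of all tested genes, and 0 passed the adjusted test of limma. The 3 encoded by mitochondrial DNA were among the 4, with Lyrm7. Without Opti-ELF-WMF dish 1, 2 were under 0.05, and Lyrm7 was not tested because it no longer reached 1 TPM in 4 dishes. Cytochrome b, mt-Cytb, was at 6403, 6567, 6506 and 6284 TPM in Control and at 4996, 4490.1, 5318 and 5493 TPM under Opti-ELF-WMF. Every exposed dish was below every Control dish, and the log2 difference was −0.35 ± 0.055 (SE), with a limma adjusted p of 0.122, and of 0.0465 without Opti-ELF-WMF dish 2, the range over all alternatives being 0.0465 to 0.263.

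The 2 mitochondria-encoded subunits of ATP synthase were less even. The gene of subunit a, mt-Atp6, was at 787, 806, 807 and 877 TPM in Control and at 542, 676, 825 and 444 TPM under Opti-ELF-WMF, where dish 3 lay within the Control range. The gene of subunit 8, mt-Atp8, was at 35492, 34121, 41102 and 38721 TPM in Control and at 28803, 24664, 34127 and 32633 TPM under Opti-ELF-WMF, with dish 3 just above the lowest Control dish. Their log2 differences were −0.43 and −0.32, with limma adjusted p of 0.223 and 0.173. The difference of mt-Atp6 was −0.29 without Opti-ELF-WMF dish 4 and −0.58 without dish 3. These genes overlap each other on the mitochondrial genome, and mitochondrial genes have nuclear copies, so how reads were split among them is uncertain.

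Among the nuclear partners, Cyc1, cytochrome c1 of complex III, was at 238, 226, 234 and 237 TPM in Control and at 228, 256, 244 and 229 TPM under Opti-ELF-WMF. Its groups overlapped, with a log2 difference of 0.03 and a limma adjusted p of 0.747. Atpif1, the inhibitor that blocks ATP hydrolysis by the enzyme, was at 259, 270.2, 251 and 272 TPM in Control and at 272, 267, 249.5 and 264 TPM under Opti-ELF-WMF. The values overlapped fully, and its log2 difference was −0.0005 with a 95% interval from −0.08 to 0.08.

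Of the other nuclear genes linked to the 2 enzymes by role or by an earlier name, the 2 with the smallest p were both lower. Lyrm7, a chaperone of the Rieske protein, was near the limit of abundance at 0.81, 1.44, 1.59 and 1.47 TPM in Control and 1.07, 0.67, 0.22 and 0.79 TPM under Opti-ELF-WMF. Its log2 difference was −0.48 with a limma adjusted p of 0.241, and the groups overlapped. With a pseudocount of 0.1 it was −0.96, and the unadjusted limma p was 0.0553 with the replicate block. Dmac2, once named for ATP synthase and known as an assembly factor of complex I, was at 24.1, 24.0, 26.8 and 27.2 TPM in Control and 24.0, 23.2, 22.3 and 24.4 TPM under Opti-ELF-WMF, with a log2 difference of −0.11 and a limma adjusted p of 0.331. The assembly factors Bcs1l, Ttc19, Atpaf1, Atpaf2, Tmem70, Tmem242, Fmc1 and Atp23, the electron acceptor Cycs and Dmac2l had log2 differences from −0.07 to 0.07, all with overlapping groups.

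A ratio between genes of a dish does not depend on the scaling. TPM of mt-Cytb per TPM of Uqcrc2 was 34.1, 34.6, 33.4 and 33.3 in Control and 24.9, 21.2, 26.4 and 26.95 under Opti-ELF-WMF. Against the mean of 9 nuclear structural subunits of complex III (Cyc1 and the Uqc genes without the assembly factors), it was 22.6 ± 0.712 (SD, n = 4) in Control and 17.2 ± 1.82 under Opti-ELF-WMF. Both ratios were lower in every exposed dish than in any Control dish. No test was run on the ratios.

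**Figure D4:**
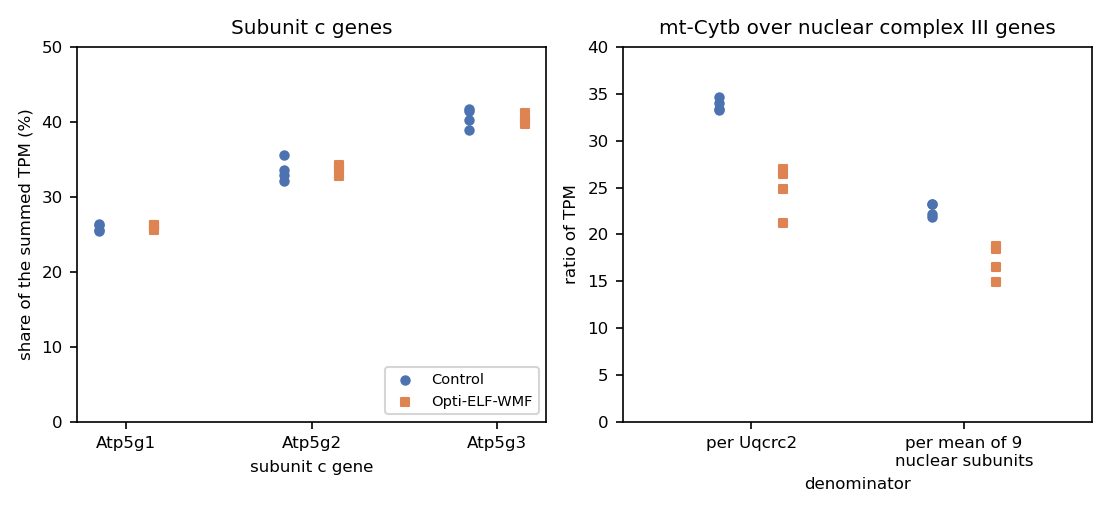
Left, share of each subunit c gene in the summed TPM of the 3 genes. Right, ratio of mt-Cytb TPM to Uqcrc2 TPM and to the mean TPM of 9 nuclear complex III subunits, with 1 point for each dish. The shares overlapped between groups, and the ratios did not, at 33.3 to 34.6 against 21.2 to 26.95 for Uqcrc2.

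For comparison, the 46 tested complex I genes with symbols starting with Nduf had a median log2 difference of 0.05, with 10 of 46 higher and 0 lower at an unadjusted p under 0.05, against 12.0% higher over all tested genes and 37.6% at 100 to 1000 TPM. The 12 tested complex IV genes with symbols starting with Cox4 to Cox8 had a median of 0.03, with 1 of 12 higher and 0 lower, against the same shares. The differences between enzymes were not tested.

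RefSeq promoter windows of 300 bases (GRCm38.p6, 250 bases before and 50 after the start) were found for 23 of the 28 tested genes, in 26 windows, and Atp5a1, Uqcrc2, Uqcrb, Uqcrq and Atp5mpl had no entry. To check strand orientation, the last bases of each window were looked for in the transcripts of its gene, and they were found for 24 of the 26 windows. They were not found for those of Atp5g2 and Atp5h, which leaves the strand of these windows unchecked. Both were kept in the counts. The ETS motif CCGGAAG, the site of GABP, was searched on both strands and was in 8 of 23 genes (34.8%), against 22.0% of 9067 tested genes and 9.93% of all 27025 genes with a window. The NRF1 motif GCATGCGC was in 5 of 23 (21.7%), against 6.37% and 3.05%, and the YY1 motif AAGATGGC was in 4 of 23 (17.4%), against 5.65% and 3.19%. The SP1 motif GGGCGG was in 9 of 23 (39.1%), against 70.2% and 38.2%, and the cyclic AMP element TGACGTCA was in 1 (Uqcrfs1), against 3.75% and 2.03%. No enrichment was tested. At least 1 of the ETS, NRF1 and YY1 motifs was in 13 of 23 genes (56.5%), against 30.7% of tested genes and 14.9% of all. A match describes letters in a window, not binding.

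**Figure D5:**
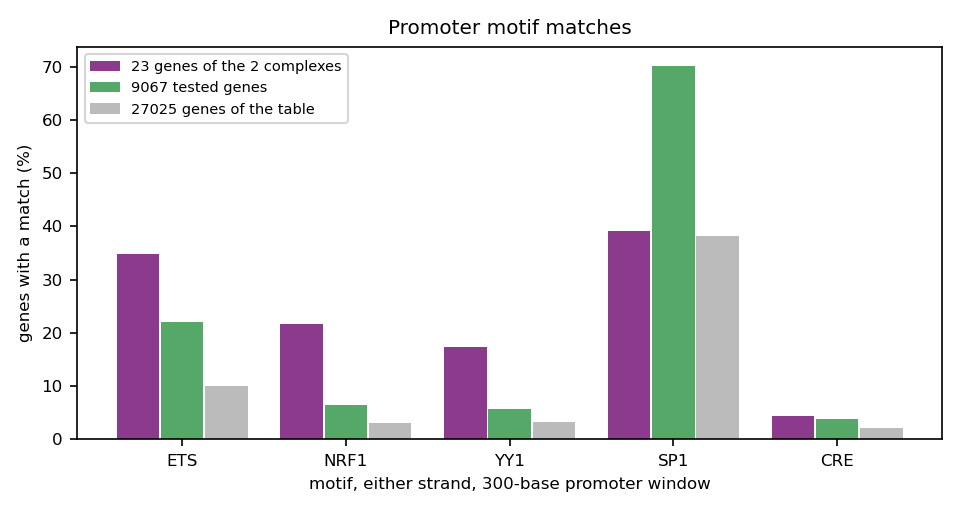
Percent of genes with each motif on either strand of a 300-base RefSeq promoter window, for 23 genes of the 2 enzymes, 9067 tested genes and 27025 genes of the table. ETS, NRF1 and YY1 matches were in larger shares of the genes of the 2 enzymes than of tested genes, and SP1 matches in a smaller share (39.1% against 70.2%).

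The bases before the start of 5 members are shown as examples, 250 bases for Atp5l and 150 for each of the others. They are a core gene with separated groups (Uqcrc1, log2 difference 0.08), 2 small subunits with overlapping groups (Uqcr11 and Uqcrh, both 0.04) and 2 genes with a lower mean (Atp5e, −0.07, and Atp5l, −0.04). These 5 do not stand for all members. Among others with separated groups, Atp5h had an ETS match and Atp5j2 and Atp5pb had YY1 matches. Atp5c1, Atp5g1 and Atp5o, also separated, had no ETS, NRF1 or YY1 match. A link between matches and differences was not tested. Capitals mark ETS and NRF1 matches that lie whole in the stretch, each written 5′ to 3′ on the strand of the gene and ending at the base before its RefSeq start, with build GRCm38.p6.
Uqcrc1, chr9:108936498-108936647, plus strand: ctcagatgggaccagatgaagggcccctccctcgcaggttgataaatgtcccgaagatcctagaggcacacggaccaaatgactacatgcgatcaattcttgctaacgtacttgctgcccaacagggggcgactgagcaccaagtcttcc
Uqcr11, chr10:80406822-80406971, minus strand: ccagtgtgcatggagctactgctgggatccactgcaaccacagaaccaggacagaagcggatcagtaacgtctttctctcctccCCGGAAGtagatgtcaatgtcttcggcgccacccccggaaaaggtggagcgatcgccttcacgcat
Uqcrh, chr4:116075071-116075220, minus strand: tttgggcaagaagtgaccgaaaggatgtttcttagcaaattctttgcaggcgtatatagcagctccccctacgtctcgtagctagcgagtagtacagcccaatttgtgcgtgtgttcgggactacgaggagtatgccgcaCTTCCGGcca
Atp5e, chr2:174464102-174464251, minus strand: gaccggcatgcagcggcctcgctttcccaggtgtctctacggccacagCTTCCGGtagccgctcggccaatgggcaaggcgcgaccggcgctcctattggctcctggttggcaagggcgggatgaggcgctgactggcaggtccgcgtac
Atp5l, chr9:44920743-44920992, minus strand: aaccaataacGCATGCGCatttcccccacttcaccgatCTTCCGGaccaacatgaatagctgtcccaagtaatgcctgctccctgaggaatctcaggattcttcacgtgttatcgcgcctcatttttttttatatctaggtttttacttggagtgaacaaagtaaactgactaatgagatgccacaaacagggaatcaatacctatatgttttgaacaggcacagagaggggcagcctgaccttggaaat
The Uqcrc1 stretch holds no match, and its NRF1 match lies after the start. Also outside the capitals are an NRF1 match of Uqcr11 that begins 4 bases before the start and runs across it, and a second ETS match of Atp5l after the start. The ETS match in capitals begins 66 bases before the start in Uqcr11, 10 in Uqcrh, 102 in Atp5e and 212 in Atp5l, where an NRF1 match also begins 240 bases before the start. NRF1 letters read nearly the same on both strands, so 1 place can match on each.

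Several members are divided from a neighbour on the other strand by a short stretch. In GENCODE annotation of GRCm38, 7 of them had a gene starting upstream on the other strand 83 to 336 bases away, and 5 of these neighbours were tested. Kin, 83 bases from Atp5c1, had a log2 difference of 0.12, and Pdcd11, 121 bases from Atp5md, had 0.07. Kctd2 beside Atp5h and Lrrc41 beside Uqcrh had −0.04 and −0.04, and Zmat5 beside Uqcr10 had 0.06. The smallest limma adjusted p among the 5 neighbours was 0.291, so no neighbour passed the test. At an unadjusted limma p under 0.05 there was 1 of the 5, Pdcd11 (0.0396), which was higher, against 12.0% of all tested genes. Gabpa, which encodes the DNA-binding subunit of GABP and whose start lies within Atp5j, had a mean TPM of 35.6 and a log2 difference of 0.04.

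Processed copies of these genes could take some of their reads. Transcripts with at least 95% identity were found for 12 members, 29 copies in all, of which 7 had a mean TPM of at least 1 and the highest 8.57. Summed over its copies, the largest share relative to a member was 2.71%, for Atp5l, with 2.61% for Atp5g1 and 1.7% for Atp5g2. How reads were divided between these genes and their copies is uncertain. Among the 8 rows with -ps, Atp5pb-ps was at 1.29 to 1.74 TPM in Control and 1.9 to 2.8 TPM under Opti-ELF-WMF, Atp5l-ps1 and Atp5l-ps2 were above 0 only in Opti-ELF-WMF dish 2, at 0.41 and 0.4, and 5 were listed at 0 throughout.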

How the data were processed

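RNA-seq of AML12 cells compared 4 Control dishes with 4 Opti-ELF-WMF dishes. The authors deposited TPM, 1 table of 55401 genes per dish. The submitters' processing notes name Trimmomatic 0.39, STAR 2.7.4a and RSEM 1.3.3 and the build mm10; the annotation is not given in the sources used here. TPM sums to 1000000 in each dish and holds no depth.

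Genes that reached 1 TPM in 4 or more dishes (12122) were tested with limma 3.58.1 in R 4.3.3 (lmFit, eBayes with a trend, two-sided) on log2(TPM + 1), with Benjamini-Hochberg adjustment. The design had allowed for counts, and the form for normalized values was used. Fold changes on this scale understate those of low genes. The fit was tested on simulated data. The members and lists were chosen with earlier results of these data known. Medians, sums, shares and ratios are descriptions without a test. Values for each dish are given for the 3 members of each enzyme with the smallest p, Uqcrc2, Uqcrfs1, Atp5a1, the subunit c genes and Atpif1. They are also given for the highest and lowest member of each enzyme, mt-Cytb, mt-Atp6, mt-Atp8, Cyc1 and the 2 other nuclear genes with the smallest p.

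Positions and neighbours came from GENCODE M21 (GRCm38), which matched 55141 gene identifiers, promoters from RefSeq (GRCm38.p6), and copies from BLAST 2.17.0 at 95% identity or more. Other settings of scaling, filter, pseudocount and trend were tried, as were a replicate block and fits without each dish.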

Additional observations from a re-analysis of the deposited data

Results flagged for a closer look

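In 4 of 100 groups of 4 dishes, 1 dish stood far from the other 3 relative to the range of its group, where chance gives about 1 in 20. Atp5b was at 1300 TPM in Control replicate 4, against 1262 to 1267 in the other Control dishes. Atp5c1 was at 280.7 TPM in Control replicate 3, against 295 to 297.8. In Opti-ELF-WMF replicate 1, Atp5j2 was at 291.1 TPM, the other exposed dishes were at 287.3 to 287.7, and all 4 lay above the Control dishes. In Opti-ELF-WMF replicate 3, Atp5g2 was at 416.5 TPM, and the other exposed dishes were at 437 to 440.7.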

How the results depend on the processing

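Of 28 members, 0 were called by limma under any alternative run, the smallest adjusted p being 0.117. Over all tested genes the count called was 1 with a TPM of at least 1 in every dish, 1 under upper-quartile scaling, 1 under median-of-ratios scaling, 1 without the trend, and 0 to 6 when 1 dish was left out. Members with an unadjusted p under 0.05, 12 as reported, were 4 under upper-quartile scaling, 6 under median-of-ratios scaling, 5 after rescaling without mitochondria-encoded genes, 8 without the trend, and 7 to 13 when 1 dish was left out. All of them were higher, and the share of all tested genes that was higher was 10.1% without the trend and 8.85% to 13.5% when 1 dish was left out. Members with separated groups, 9 as reported, were 2, 3 and 3 under these scalings in the same order. The median log2 difference was 0.0262, 0.0355 and 0.0286 for all members, 0.0267, 0.0361 and 0.029 for ATP synthase, and 0.0257, 0.035 and 0.0281 for complex III. For ATP synthase it was 0.0515 to 0.0831 when 1 dish was left out. The summed TPM differed by 1.57%, 2.23% and 1.72% for all members, by 1.54%, 2.2% and 1.69% for ATP synthase, and by 1.67%, 2.32% and 1.81% for complex III. These scalings divide all genes of a dish by 1 factor. Of the other genes linked to the 2 enzymes by role or by an earlier name, 2 to 5 had an unadjusted limma p under 0.05 when 1 dish was left out, against 4 as reported. Lyrm7, which is among the 4, missed the filter and was not tested without Control dish 2, 3 or 4 or without Opti-ELF-WMF dish 1.

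Members with a higher mean, 24 of 28 as reported, were 21, 22 and 21 under upper-quartile, median-of-ratios and mitochondria-free scaling, so some members turned lower. These lay outside the 23 named genes that were followed one by one. Of those 23, none changed sign under the alternatives that kept all dishes, with Lyrm7 not tested when 1 TPM was required in every dish. When 1 dish was left out, 5 did, and the cause was not tested: Atpif1 ranged from −0.0223 to 0.0245, Atp5e from −0.141 to 0.0428, Cyc1 from −0.00067 to 0.0553, Atp5mpl from −0.0412 to 0.0165 and Atp5md from −0.0524 to 0.0039 on the log2 scale. The median of the members exceeded that of all genes by 0.0318, by 0.0545 without the filter, by 0.0165 without Opti-ELF-WMF dish 1, by 0.0496 without Control dish 1, and by 0.0001 against genes with a mean TPM of 100 to 1000, a comparison added after seeing the data. Dishes of the same number did not deviate together (r across genes of −0.0348, −0.0419, 0.0004 and 0.0258). With the replicate block 13 members had an unadjusted limma p under 0.05, all higher, and 0 genes were called. In that fit 11.8% of all tested genes were higher and 3.79% lower at the same threshold. Count-based tools could not be used on TPM and were not run. The unknown depth limits what can be said of low genes such as Lyrm7.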
